A study of Mus musculus with 8 samples.

Results

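Solute carriers are membrane proteins that move ions, amino acids, sugars, vitamins, metals and metabolites across the plasma membrane and the membranes of mitochondria, Golgi and lysosomes. The uterine epithelium uses them to set the composition of luminal fluid, and every cell uses the mitochondrial members to exchange metabolites with its mitochondria. Some work alone, others as pairs, such as the amino acid light chains that need a common heavy chain to reach the cell surface. The members here are all genes whose name follows the solute carrier pattern (Slc or Slco, a family number, a letter and a member number) in any of the 4 deposited tables. They number 73 of 5828 listed genes. No organic anion transporter with an Slco name is among them. The pattern also takes in Slc9a3r1 and Slc9a3r2, scaffold proteins named after the sodium/proton exchanger they bind, so that 71 members are carriers.

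The data are Visium spatial transcriptomes of uterus, a method where an array of barcoded spots takes up polyadenylated RNA from the section above it and each molecule is counted once by its unique molecular identifier (UMI). The knockout (KO) group held 4 females of genotype EZ fl/fl; Prcre/+, in which Cre from the progesterone receptor locus deletes Ezh2, the methyltransferase of Polycomb repressive complex 2. The wild-type (WT) group held 4 females of genotype EZ fl/fl, which carry the floxed alleles without Cre. All were of mixed C57BL/6 and 129SvEv strain, came as 1 female of each genotype from each of 4 litters, were ovariectomized at postnatal day 71 ± 4 and were sampled at day 112 ± 11. Cre is limited to cells that use the progesterone receptor gene, and its insertion occupies 1 allele of that gene in KO mice only. Ezh2 has no value in the tables used here, so its loss could not be checked.

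The authors' tables pool the spots they named epithelium or stroma over the animals of a genotype. There are thus 4 pools (WT epithelium, KO epithelium, WT stroma, KO stroma), with 1 value per gene and pool and no spread between animals. A spot can hold several cells, and fewer cells of a type and less RNA per cell cannot be told apart. The UMI sum of each gene and pool was worked back from the authors' averages. Levels below are UMIs per 10000 UMIs of listed genes, on the scale of the WT epithelium pool. They were made comparable over pools with the authors' size factors. Recovered totals cover listed genes only, from 416747 UMIs over 1782 genes in WT stroma to 1552958 over 5823 genes in KO epithelium. They are not depths: by the size factors, KO epithelium had 2.75 times the depth of WT stroma. Intervals are 95% counting intervals that leave out the spread between animals. A gene counts as called at an adjusted p under 0.05 in the authors' table.

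Marker genes lay where the names of the pools place them. Over the 11 simple epithelium markers with a value in every pool, the summed level was 78.3 in WT epithelium, 66.8 in KO epithelium, 9.47 in WT stroma and 21 in KO stroma. Over 13 endometrial stroma markers it was 43.3, 60.8, 146.0 and 127.1 in the same order. Over 7 smooth muscle markers it was 9.18, 5.92, 25.1 and 12.2. Each KO pool thus had a higher level of the other compartment's markers than its WT counterpart, and both had a lower level of smooth muscle markers. These values stand beside the carrier results below, and their part in those results was not tested unless a value is given.

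The 3 members called between compartments in both genotypes were Slc25a48, Slc25a5 and Slc7a11, all higher in epithelium. Their promoters are shown because these genes carry the compartment result. The sequences are the 250 bases before the RefSeq start on GRCm38.p6, 5′ to 3′ on the gene's strand, at chr13:56438105-56438354 (plus strand) for Slc25a48, chrX:36795347-36795596 (plus strand) for Slc25a5 and chr3:50443614-50443863 (minus strand) for Slc7a11. Capitals mark matches, on either strand, to 4 motifs: the amino acid response element TGATGNAA, the antioxidant response element core TGACNNNGC, the TATA box TATAAA and the GC box GGGCGG.
Slc25a48: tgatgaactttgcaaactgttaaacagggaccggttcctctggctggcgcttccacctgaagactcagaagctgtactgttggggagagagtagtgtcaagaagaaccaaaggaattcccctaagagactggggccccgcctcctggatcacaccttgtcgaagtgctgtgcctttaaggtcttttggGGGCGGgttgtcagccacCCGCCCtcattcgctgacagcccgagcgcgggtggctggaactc
Slc25a5: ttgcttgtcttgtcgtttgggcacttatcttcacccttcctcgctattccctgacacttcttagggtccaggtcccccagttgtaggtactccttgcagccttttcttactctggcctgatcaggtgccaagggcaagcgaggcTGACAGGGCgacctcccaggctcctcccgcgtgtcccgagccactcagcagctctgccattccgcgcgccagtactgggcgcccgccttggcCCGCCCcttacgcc
Slc7a11: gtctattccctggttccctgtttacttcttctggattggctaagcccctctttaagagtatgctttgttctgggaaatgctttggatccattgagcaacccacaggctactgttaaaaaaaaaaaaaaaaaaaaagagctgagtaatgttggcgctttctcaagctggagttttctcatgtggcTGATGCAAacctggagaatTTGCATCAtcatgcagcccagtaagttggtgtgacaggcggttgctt
Slc7a11 has a pair of amino acid response elements in opposite orientation, at 66 to 59 and at 47 to 40 bases before the start. This element is the textbook binding site of ATF4, the transcription factor of the amino acid shortage response. Slc25a48 has 2 GC boxes, and Slc25a5 has 1 GC box and 1 antioxidant response element core. None of the matches overlap. Of the 73 members, 56 have an entry in the RefSeq table, with 77 start sites. The amino acid response element is in 3.9% of these windows and in 3.45% of all 32851 windows, the antioxidant core in 18.2% and 10.2%, the GC box in 67.5% and 32.7%, and the TATA box in 0 of the 77 against 12.4% of all. A match describes the letters only.

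The comparison of WT epithelium with WT stroma asks which carriers mark each compartment of the hormone-deprived uterus. Of 18 listed members 10 were called, 7 towards epithelium and 3 towards stroma, against 28.8% of all listed genes (13.1% towards epithelium and 15.7% towards stroma). The median log2 ratio of epithelium over stroma was 0.62 for the members and 0.02 for all listed genes. A gene is listed only if its deposited average is above 1 in at least 1 of the groups, which favours large differences among low genes. Over the 7 members above 1 in both groups the median was -0.03, with 3 calls, and over all 1045 such genes it was 0.03, with 157 calls.

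Slc25a48, an inner mitochondrial membrane carrier reported to import choline (chr13:56438355-56474239, plus strand, GRCm38, protein-coding like all members placed here), had the widest contrast. It had 555 UMIs in WT epithelium and 23 in WT stroma, and 351 in KO epithelium and 79 in KO stroma, which are levels of 3.89, 0.409, 2.27 and 0.699. Both epithelial pools stand well above both stromal pools. The fold was 9.49 (6.26 to 15.1) in WT, and the authors' deposited table gives 1.81e-09 as adjusted p.

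Slc7a11 (chr3:49892526-50443614, minus strand) is the light chain of the cystine/glutamate exchanger that supplies cysteine for glutathione. It had 264 UMIs in WT epithelium, 19 in WT stroma, 348 in KO epithelium and 124 in KO stroma, or 1.85, 0.338, 2.25 and 1.10 per 10000. WT stroma is the low pool, and KO stroma lies between it and both epithelial pools. Its WT fold was 5.47 (3.43 to 9.22), with 1.37e-08 as adjusted p in the authors' deposited table. The heavy chain Slc3a2, which Slc7a11 needs at the cell surface, had 319, 128, 353 and 233 UMIs in the same pools, which are levels of 2.23, 2.28, 2.28 and 2.06. The heavy chain was thus near level over the pools (WT fold 0.98, 0.80 to 1.21), while its light chain was not.

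Set against their joint UMIs, Slc7a11 made up 45.3% (41.2 to 49.4, exact binomial interval) of Slc7a11 and Slc3a2 in WT epithelium and 12.9% (7.96 to 19.4) in WT stroma. In KO the shares were 49.6% (45.9 to 53.4) in epithelium and 34.7% (29.8 to 39.9) in stroma. A share within a pool does not depend on depth, and the stromal shares of the genotypes do not overlap in their counting intervals. Those intervals leave out the spread between animals. With Slc3a2 near level over the pools, the shares mostly restate the Slc7a11 values. In WT, Slc7a11 passed the listing level only through epithelium (average 1.49 against 0.272 in stroma), which favours a low stromal share. The gap between the stromal shares is therefore description only. Slc7a8, another light chain of the same heavy chain that carries neutral amino acids, went the other way in KO, with 111 UMIs in epithelium and 121 in stroma (0.67-fold, 0.51 to 0.87). That value was not called (the authors' deposited table has 0.498 as adjusted p), and Slc7a8 was chosen after its values were seen.

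Slc39a4 encodes ZIP4, a plasma membrane importer of zinc (chr15:76612383-76617384, minus strand). It had 332 UMIs in WT epithelium, 31 in WT stroma, 226 in KO epithelium and 95 in KO stroma, or 2.32, 0.552, 1.46 and 0.840 per 10000. The order is the same in both genotypes and the gap is narrower in KO, where the value was not called. Its WT fold was 4.21 (2.91 to 6.30), with 1.88e-06 as adjusted p in the authors' deposited table. Slc39a7, the ZIP7 carrier that releases zinc from the endoplasmic reticulum, had 179 UMIs in WT epithelium and 64 in WT stroma (1.10-fold, 0.82 to 1.49) and was not called. The plasma membrane zinc importer thus had a compartment difference that was not detected in the internal one.

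The other 4 members called higher in WT epithelium had folds near each other. Slc15a2, the peptide transporter PEPT2, had 192 UMIs against 37 (2.04-fold, 1.43 to 2.99). Slc1a5, the glutamine and neutral amino acid exchanger ASCT2, had 381 against 75 (2.00-fold, 1.56 to 2.6). Slc25a11, the mitochondrial oxoglutarate/malate carrier, had 218 against 43 (1.99-fold, 1.43 to 2.83), and Slc25a5, an ADP/ATP carrier, had 384 against 86 (1.76-fold, 1.39 to 2.25). Their adjusted p-values in the authors' deposited table lay between 0.0185 for Slc1a5 and 0.0397 for Slc25a5.

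Of the members called towards stroma, Slc25a4, the ADP/ATP carrier typical of muscle and heart, was 1.77-fold (1.46 to 2.14) higher in WT stroma, with 267 UMIs in epithelium and 186 in stroma. Slc38a2, the SNAT2 carrier of small neutral amino acids, was 1.69-fold (1.32 to 2.15) higher in stroma, with 173 and 115. Their adjusted p-values were 0.00971 and 0.0454 in the authors' deposited table.

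**Figure D1:**
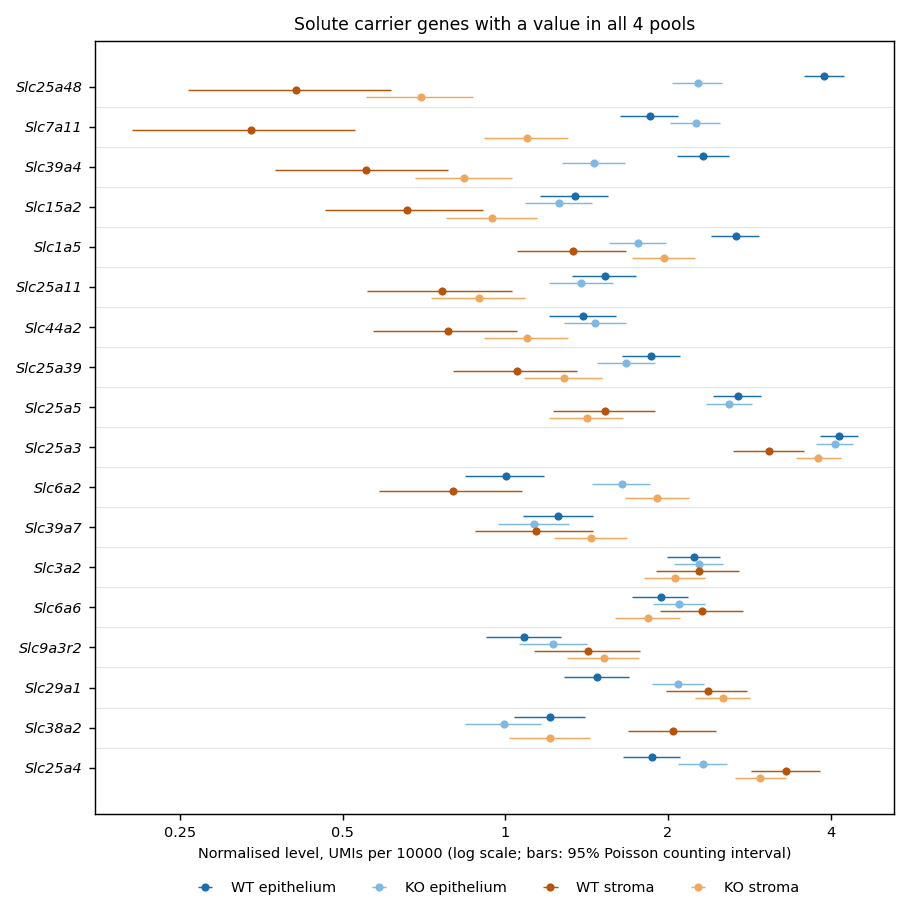
Normalised level in UMIs per 10000 (log scale, bars are 95% Poisson counting intervals) of 18 solute carrier genes with a value in all 4 pools, ordered by their epithelium over stroma ratio in WT. Slc25a48 at the top runs from 0.409 in WT stroma to 3.89 in WT epithelium, and Slc25a4 at the bottom is highest in WT stroma.

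The ADP/ATP carriers Slc25a4 and Slc25a5 bring ATP out of mitochondria in exchange for ADP and were called in opposite directions in WT. Slc25a4 made up 41% (37.2 to 44.9, exact binomial interval) of their joint UMIs in WT epithelium and 68.4% (62.5 to 73.9) in WT stroma. In KO the shares were 47.2% (43.6 to 50.8) in epithelium and 67.7% (63.4 to 71.8) in stroma. The counting intervals of the compartments did not overlap in either genotype. In WT this restates the calls in opposite directions and adds nothing to them. Smooth muscle markers, which are themselves higher in stroma, had a summed level in KO stroma 0.485 times that in WT stroma, and their part in these shares was not tested. Slc25a3, the mitochondrial phosphate carrier that supplies ATP synthase, had 592 UMIs in WT epithelium and 173 in WT stroma (1.35-fold, 1.13 to 1.60) and was not called.

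The same comparison in KO mice listed 35 members and called 5, all higher in epithelium, against 9.88% of all listed genes called in either direction and 5.43% with the higher value in epithelium. The median log2 ratio was 0.19 for the members and -0.01 for all listed genes. It was 0.10 over the 23 members above 1 in both groups, with 2 calls, and 0.01 over all 2019 such genes, with 125 calls. Slc14a1, the urea transporter UT-B, led with 326 UMIs in KO epithelium and 62 in KO stroma (3.84-fold, 2.92 to 5.12). WT epithelium had 166, or 1.16 per 10000 against 2.11 in KO epithelium and 0.548 in KO stroma, and WT stroma has no value here. Slc25a48 was 3.24-fold (2.54 to 4.20) higher in KO epithelium. Slc31a2, a copper carrier of internal membranes related to the importer CTR1, had 159 UMIs against 45 (2.58-fold, 1.84 to 3.68). Slc14a1, Slc25a48 and Slc31a2 passed the listing level only through epithelium, which fixed their direction. Their averages in KO stroma were 0.695, 0.886 and 0.504.

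Slc7a11 was 2.05-fold (1.67 to 2.54) and Slc25a5 1.83-fold (1.52 to 2.22) higher in KO epithelium. For KO the authors' deposited table gives adjusted p-values of 4.74e-05 for Slc14a1, 0.000101 for Slc25a48, 0.00152 for Slc31a2, 0.0178 for Slc7a11 and 0.0265 for Slc25a5. No member was called higher in KO stroma, against 4.45% of all listed genes. Low ratios there were those of Slc7a8 at 0.67-fold and Slc25a4 at 0.78-fold (0.67 to 0.91). By class, all 3 nucleotide sugar and related carriers had a higher value in KO epithelium (median log2 0.29). So did 7 of 8 mitochondrial carriers (median 0.46), with Slc25a4 the exception, and 49.2% of all listed genes. The listing level fixed the direction of members that passed it in 1 group only, Slc35a4, Slc35b2 and Slc25a48 among them. These class counts are therefore description only. Among 7 amino acid carriers 3 were higher and 4 lower (median -0.03).

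The compartment contrasts were then set side by side over the 18 members listed in both tables. The absolute log2 contrast was smaller in KO for 15 of 18, with a median of 0.83 in WT and 0.37 in KO. Over all 1737 genes in both tables it was smaller in KO for 78.0%, with medians of 0.45 and 0.27. The carriers thus share a pattern of the whole table. This set holds nearly all of the 1769 genes listed in WT, and that listing favours large WT differences among low genes. The summed level of simple epithelium markers, too, was 8.27 times as high in epithelium as in stroma in WT (11 markers listed) and 3.20 times in KO (14 listed), and the part of this in the carrier values was not tested.

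Among the 10 members called in WT the absolute contrast was smaller in KO for 9, and among all 486 genes called in WT for 98.4%. Those 486 genes had a median of 1.32 in WT and 0.78 in KO, so a smaller contrast in KO is not particular to carriers. Genes called in WT were selected by a large WT contrast, and that selection alone favours a smaller value in KO. These counts are therefore description only, and the selection also applies to the single members below. Single members differed in how far the contrast moved. The WT log2 contrast exceeded that of KO by 1.55 (0.85 to 2.25) for Slc25a48, 1.42 (0.68 to 2.15) for Slc7a11, 1.28 (0.64 to 1.91) for Slc39a4 and 1.16 (0.72 to 1.60) for Slc1a5. For Slc25a4, which is higher in stroma, the difference was -0.47 (-0.82 to -0.13). Slc25a5 kept its contrast, with a difference of -0.06 (-0.49 to 0.37). Slc1a5 is the member called in WT whose direction turned: it was 2.00-fold higher in WT epithelium and 0.89-fold (0.75 to 1.07) in KO, an interval that includes no difference. These intervals cover counting error only, and no difference of contrasts was tested, since the tables give no standard error.

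**Figure D2:**
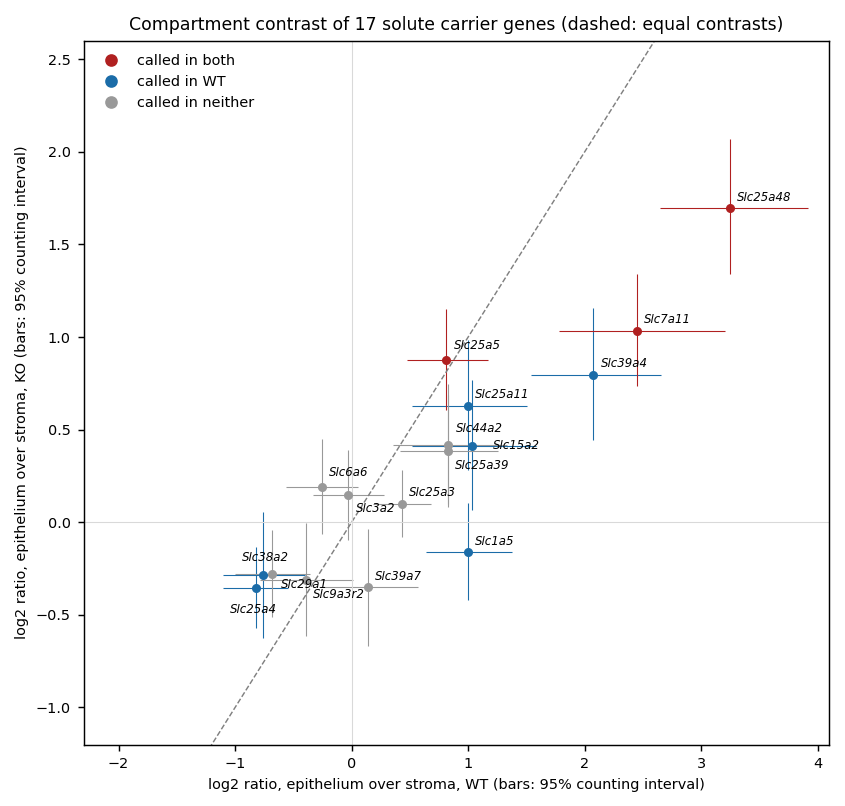
Log2 ratio of epithelium over stroma in WT (x axis) and in KO (y axis) for 17 solute carrier genes listed in both compartment tables, with 95% counting intervals. The dashed line marks equal contrasts: Slc25a48 (3.25 in WT and 1.70 in KO) lies far below it, and Slc25a5 lies near it.

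The next question was which carriers differ in epithelium when Ezh2 is deleted. All 73 members are listed there, and 0 were called, against 0.12% of all listed genes (0.0688% with the higher and 0.0516% with the lower value in KO). For 68 members the authors' deposited table lists 1 as adjusted p. Unadjusted p-values are not analysed here, and the test behind them was not stated. In KO, 29 members were at a higher and 44 at a lower value than in WT (median log2 ratio -0.08). All listed genes had a median of -0.10 and 35.2% of them a higher value, and relative to that median the members' was 0.02. The counting interval left out a ratio of 1 for 18 members, or 24.7%, and for 23.1% of all listed genes. The values below are therefore levels of these pools, with no called difference.

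Among carriers of the plasma membrane with a higher value in KO epithelium, Slc14a1 had 326 UMIs against 166 in WT (1.81-fold, 1.5 to 2.20), and Slc6a2, the noradrenaline transporter, had 254 against 143 (1.64-fold, 1.33 to 2.03). Slc29a1, the nucleoside carrier ENT1, had 323 against 211 (1.41-fold, 1.18 to 1.69). Slc40a1, the iron exporter ferroportin, named after its value was seen, had 109 against 55 (1.83-fold, 1.31 to 2.58). It passed the listing level only through KO (average 1.77 against 0.967 in WT), which fixed its direction.

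Endometrial stroma markers also had higher values in KO epithelium, 11 of 13, with folds from 0.918 to 1.89 and a summed level 1.41-fold higher. Slc29a1 had a higher level in stroma than in epithelium of WT mice, as those markers have. Slc14a1 had a lower level in KO stroma than in either epithelial pool. How far stromal transcripts in epithelial spots enter these values was not tested.

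Lower values in KO epithelium were found for Slc25a48 at 0.58-fold (0.51 to 0.67), Slc39a4 at 0.63-fold (0.53 to 0.75), Slc1a5 at 0.66-fold (0.56 to 0.77) and Slc1a1 at 0.74-fold (0.58 to 0.93). Slc1a1, the glutamate carrier EAAC1, had 132 UMIs against 165 in WT. All 4 had higher levels in epithelium than in stroma wherever WT or KO tables list them, except Slc1a5 in KO. Simple epithelium markers had a median log2 ratio of -0.17 in the same comparison, with 12 of 16 lower and folds from 0.525 to 1.34. Slc12a2, the sodium, potassium and chloride cotransporter NKCC1 of secretory epithelia, had 127 UMIs against 147 (0.80-fold, 0.62 to 1.02).

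The 4 lowest ratios were in sparse genes, which apart from Slc8a1 were chosen after their values were seen. All 4 passed the listing level of 1 only through WT, with deposited averages in KO of 0.178 for Slc13a5, 0.697 for Slc25a33, 0.746 for Slc52a3 and 0.908 for Slc8a1. Slc13a5, a plasma membrane citrate carrier, had 11 UMIs in KO and 57 in WT epithelium (0.18-fold, 0.08 to 0.34). Slc25a33, a mitochondrial carrier of pyrimidine nucleotides, had 43 against 91 (0.44-fold, 0.30 to 0.63), and Slc52a3, a riboflavin carrier, had 46 against 86 (0.49-fold, 0.34 to 0.71). Slc8a1, the sodium/calcium exchanger, had 56 against 106 (0.49-fold, 0.35 to 0.68). The 8 listed smooth muscle markers were all lower in KO epithelium too, with a median log2 ratio of -1.25. All of Slc13a5, Slc25a33, Slc52a3 and Slc8a1 had an adjusted p between 0.634 and 0.655 in the authors' deposited table.

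By class, the 18 mitochondrial carriers had a median log2 ratio of -0.09 in KO over WT epithelium, with 5 higher and 13 lower. Slc25a3 had 630 UMIs against 592 (0.98-fold, 0.88 to 1.10) and Slc25a5 402 against 384 (0.97-fold, 0.84 to 1.11). Slc25a4 was at 1.24-fold (1.06 to 1.46). The 12 metal carriers had a median of -0.14, with Slc40a1 and Slc39a4 at the ends and Slc31a2 at 1.40-fold (1.09 to 1.81). The 12 carriers of nucleosides, vitamins, choline, heme, urea and lipids had a median of -0.07, the choline-like carrier Slc44a2 lying at 1.05-fold (0.87 to 1.28).

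The 7 nucleotide sugar and related carriers were classed by family number alone, and some members of that family feed glycosylation and sulfation in the Golgi. The 7 kept the narrowest range of the classes with over 6 members. Their log2 ratios ran from -0.21 to 0.50 with a median of 0.03. Slc35f5 had 191 UMIs against 173 in WT, Slc35b2, which brings the sulfate donor PAPS into the Golgi, 137 against 120, and Slc35a4 124 against 124. Of 6 acid-base and ion carriers 5 were lower, with Slc4a2, the chloride/bicarbonate exchanger AE2, at 0.95-fold (0.76 to 1.20). Of 7 amino acid carriers 3 were higher, Slc7a11 at 1.22-fold (1.03 to 1.43) among them, and Slc3a2 stood at 1.02-fold (0.88 to 1.19). Both glucose carriers in the table, Slc2a1 (GLUT1; 72 UMIs against 63) and Slc50a1 (SWEET1; 124 against 132), were named after their values were seen.

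**Figure D3:**
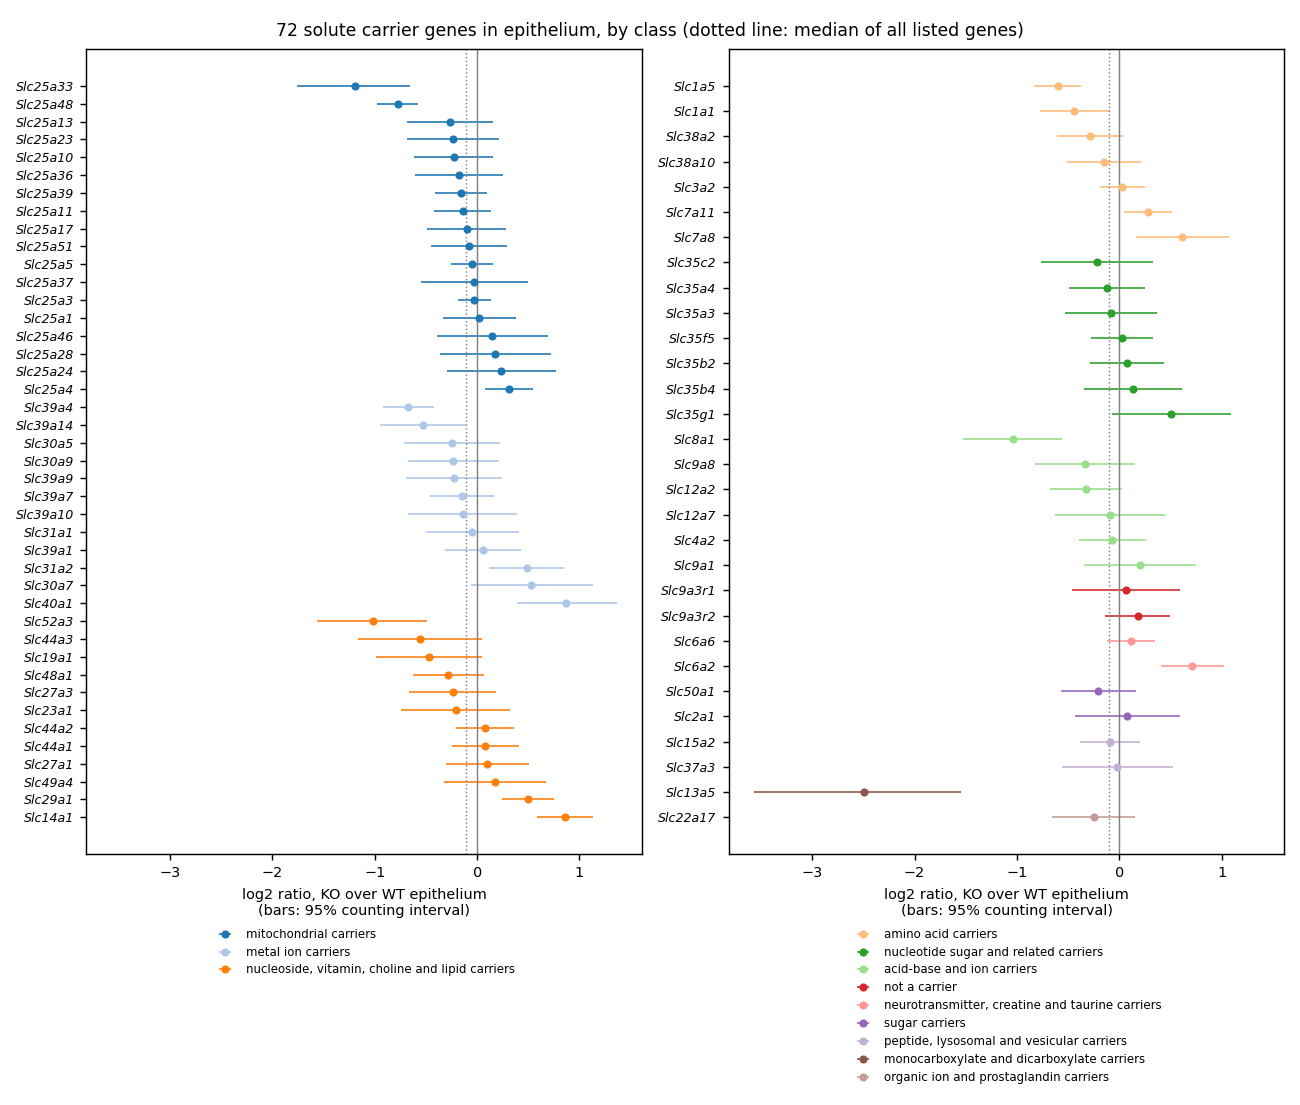
Log2 ratio of KO over WT epithelium (x axis) for 72 members, 1 row each, coloured by transport class, with 95% counting intervals and the median of all listed genes at -0.10 as a dotted line. Slc13a5 at -2.49 and Slc40a1 at 0.87 lie at the ends, and most intervals cross 0.

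In stroma, 10 members are listed in the genotype comparison and 0 were called, against 1.51% of all listed genes (0.756% in each direction). Their median log2 ratio was -0.01, with 5 higher and 5 lower, against -0.05 over all listed genes. Slc6a2 had the lowest adjusted p, 0.0919 in the authors' deposited table, and is named after its value was seen. It had 45 UMIs in WT stroma, 216 in KO stroma, 143 in WT epithelium and 254 in KO epithelium, or 0.801, 1.91, 1.00 and 1.64 per 10000. Both KO pools are above both WT pools, with a KO over WT ratio of 2.39 (1.72 to 3.37) in stroma. Its ratio of epithelium over stroma was 1.25 (0.89 to 1.79) in WT and 0.86 (0.71 to 1.03) in KO. Both of these intervals include 1. In stroma Slc6a2 passed the listing level only through KO (average 1.27 against 0.531 in WT), which fixed its direction there.

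Slc38a2 had 137 UMIs in KO and 115 in WT stroma (0.59-fold, 0.46 to 0.77; 0.59 as adjusted p in the authors' deposited table). Slc6a6, the taurine carrier, was at 0.80-fold (0.636 to 0.998), Slc25a4 at 0.90-fold (0.75 to 1.08) and Slc3a2 at 0.90-fold (0.73 to 1.13). Slc1a5 was at 1.47-fold (1.13 to 1.94), Slc25a3 at 1.23-fold (1.03 to 1.48) and Slc29a1 at 1.07-fold (0.87 to 1.32). Of the joint UMIs of Slc1a5 and Slc38a2, which both carry neutral amino acids, Slc1a5 made up 39.5% (32.5 to 46.8) in WT stroma and 61.8% (56.6 to 66.9) in KO stroma. In epithelium the shares were 68.8% (64.7 to 72.6) in WT and 63.8% (59.1 to 68.4) in KO. Both genes were called between compartments in WT, in opposite directions, so the gap between the WT shares restates those calls. In the stromal comparison Slc1a5 passed the listing level only through KO (average 1.30 against 0.885 in WT). Slc38a2 passed it only through WT (1.36 against 0.804 in KO). The listing level thus fixed both directions, and the gap between the stromal shares is description only. Each of the 10 had an average above 1 in at least 1 stromal pool, and carriers below that level in both are not in this table.

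For 9 further members both stromal pools have a value through the compartment tables, where the authors give no genotype p. Of these, 8 had a higher value in KO stroma, where 46.5% of all 1758 genes with both values did. The same 8 passed the listing level in WT only through epithelium. Their count is therefore not comparable with that share and is not read as a result about carriers. Slc7a11 had 124 UMIs in KO and 19 in WT stroma, a ratio of 3.24 (1.99 to 5.57), and was the widest of the 19 members. Slc25a48 was at 1.71 (1.06 to 2.85), Slc39a4 at 1.52 (1.01 to 2.36) and Slc15a2 at 1.44 (0.98 to 2.15). The 11 simple epithelium markers with both values were all higher in KO stroma, with ratios from 1.42 to 7.95 and a median of 2.21. Slc7a11, Slc25a48, Slc39a4 and Slc15a2 are carriers of the epithelium in WT, and the part of epithelial transcripts in their stromal values was not tested.

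Across compartments, Slc25a48, Slc39a4 and Slc1a5 had lower values in KO epithelium and higher values in KO stroma, with counting intervals that leave out 1 in each case. Such intervals are common: they leave out 1 for 23.1% of all genes listed in the epithelium comparison and 46.2% in that of stroma. Slc25a48 and Slc39a4 are not listed in that of stroma, so 46.2% is not their background. Their WT stroma values were listed only through epithelium, and Slc1a5 passed the listing level in stroma only through KO. The share of all genes with this pattern is not given here, so it is not read as a result about carriers. Slc6a2 had higher values in both compartments, in stroma in a direction that the listing level fixed. Of the genotype values of these genes none was called, and the difference between compartments was not tested.

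**Figure D4:**
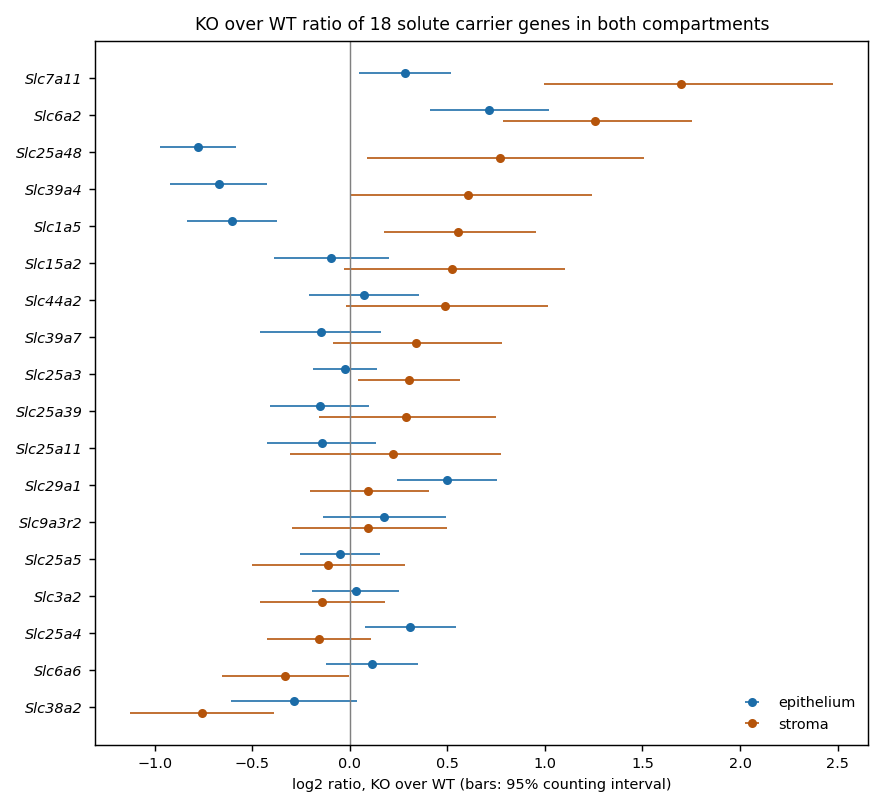
Log2 ratio of KO over WT in epithelium (blue) and stroma (orange) for 18 solute carrier genes with a value in all 4 pools, ordered by the stromal ratio, with 95% counting intervals. Slc7a11 at the top has 1.70 in stroma and 0.28 in epithelium, Slc6a2 is above 0 in both, and Slc25a48, Slc39a4 and Slc1a5 have blue points below 0 and orange points above 0.

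Carriers work beside pumps and channels that build the gradients they use, and a list of 108 such genes was read in the same tables. Between genotypes, 0 of 48 listed genes were called in epithelium and 1 of 14 in stroma, against 0.12% and 1.51% of all listed genes. That gene was Clca1, a secreted regulator of chloride channels, with 270 UMIs in KO and 17 in WT stroma (7.89-fold, 4.84 to 13.8; 0.00468 as adjusted p in the authors' deposited table). In WT, Clca1 was also 7.10-fold (4.36 to 12.4) higher in epithelium than in stroma. In both comparisons it was below the listing level in WT stroma, which fixed its direction. The 11 simple epithelium markers with both stromal values were also all higher in KO stroma, with ratios from 1.42 to 7.95. The part of epithelial transcripts in the stromal value of Clca1 was not tested.

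Between compartments in WT, calls were made for 9 of 23 listed genes towards epithelium and for 9 towards stroma, against 13.1% and 15.7% of all listed genes. Those of epithelium included Fxyd4 (7.53-fold, 5.69 to 10.2), a regulator of the sodium pump, and the carbonic anhydrase Car2 (6.09-fold, 4.28 to 8.95). Fxyd3, of the same family of pump regulators (6.31-fold, 4.81 to 8.42), and Ucp2, a mitochondrial carrier of the same superfamily as Slc25 (5.97-fold, 3.88 to 9.66), were higher there too. Those of stroma included the water channel Aqp1 (4.60-fold, 3.18 to 6.71), the exporter Abcg2 (3.39-fold, 2.37 to 4.87) and the chloride channel Ano1 (3.20-fold, 2.46 to 4.18). In KO, 7 of 28 were called towards epithelium and 3 towards stroma, against 5.43% and 4.45% of all listed genes, with Fxyd4 at 3.87-fold (3.24 to 4.63), Car2 at 2.50-fold (2.15 to 2.92) and Ucp2 at 2.66-fold (2.16 to 3.30) in epithelium.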

How the data were processed

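Cryosections of 10 µm from 4 WT and 4 KO uteri were made into Visium libraries, per the labels' protocols. The submitters' processing notes name GRCm38 as build. Aligner, naming of spots and test: not given in the sources used here. Each of the authors' 4 tables gives every gene an average in both groups, a log2 fold change and an adjusted p-value, per the file headers. The deposited log2 values equal log2 ratios of pooled UMI sums plus 1 over size factor sums plus 1, which were solved by least squares. Multiplied by that sum, 100% of the averages came within 0.01 of whole UMIs, and sums of a pool differed between tables for 0 genes. Ratios are those of the recovered sums without a pseudocount, with 95% Clopper-Pearson intervals, and differences of log2 ratios have Wald intervals. Simulated tables held Poisson counts without spread between animals and used the same formula for log2 values, so they check the code only. With 200 changed genes among 5811 for KO over WT epithelium, 100% of sums were recovered and the intervals covered 95.7% of unchanged genes. Coverage was 94.6% to 95.5% in the other comparisons. Levels carry Poisson intervals.

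Members and lists were chosen with earlier results of these data known. Named with values were called members, the 5 per direction with the largest ratios at or above the members' median UMIs in each genotype table, the 3 with most UMIs in each transport class, and up to 5 called pump and channel genes per direction and table. A name outside this rule is said to be so. All 73 members were found in GENCODE release M21, which gave gene positions, and promoters came from RefSeq on GRCm38.p6. Python 3.11.15, NumPy 2.4.6, SciPy 1.17.1, pandas 2.3.3 and matplotlib 3.10.9 were used. Alternatives were other thresholds, a level filter, centring, carrier names only and members above an average of 1 in both groups. Values of 1 member are not reported here, in text or figures, while counts and medians over the members include it.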

Additional observations from a re-analysis of the deposited data

How the results depend on the processing

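Members called between compartments in WT fell from 10 to 5 at an adjusted p of 0.01, to 5 at an absolute log2 fold of at least 1, to 6 without the lowest 25% of genes by level, and to 3 among members above an average of 1 in both groups. In KO they fell from 5 to 3 at 0.01 and to 2 among members above 1 in both groups. Each of these settings drops calls by construction. The level of 1 in both groups was chosen as a setting after seeing the data. Counts in the genotype comparisons stayed at 0 under all settings run, and list medians stayed within their order-statistic intervals. Of the 15 calls, 7 were lost at 0.01 and 6 at the minimum fold, and centring moved none of 30 gene values, called or not, outside its counting interval. No paired analysis was possible because each deposited value sums over all mice of 1 genotype, and for the same reason no animal could be left out. Depth limits the WT stroma values most, since that pool had 0.393 of the depth of WT epithelium.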
